A study of Mus musculus with 4 samples.

Results

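The 9 mouse genes Lgals6, Ppp1r14d, Slc27a2, Capn3, Myom2, Gc, Kif5b, Reg2 and Cst13 are described here on 4 microarrays, of 35157 genes that had a value on all of them. They were chosen because their signal on the array of an embryonic stem cell line lay far above or far below that on both arrays of induced pluripotent stem cells. The rule took every probe the array design assigns to these names, which gave 11 probes of 54963, and 10 of the 11 passed the scanner software's test for a signal well above background somewhere. The groups were ESC, embryonic stem cells of the 129SV background, then iPS-OSH and iPS-J, which are induced pluripotent lines of the C57BL/6 background, and MEF, fibroblasts from mouse embryos, also C57BL/6. The pluripotent lines were grown in medium with the cytokine LIF and the fibroblasts without it, and the labels name no drug or engineered allele. Total RNA was labelled with Cy3 and hybridised to a 1-colour Agilent array of 60-base probes, with 1 array per group.

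Without replicates no difference could be tested, so every comparison below is a size and not a significance. The only array of the 129SV background was also the only array scanned in its session, so strain, cell line, derivation and scan session cannot be told apart in any value that sets ESC against the rest. The 4 arrays shared 1 slide that was scanned in 3 sessions, with the MEF array in one, both iPS arrays in another and the ESC array in the third. The 75th percentile of the processed signal was 1307 on ESC, 1564 on iPS-OSH, 1241 on iPS-J and 1765 on MEF, and between 67% and 81.7% of spots per array were well above background. By their sum the pluripotency markers set the 3 pluripotent arrays apart from MEF. Fibroblast markers were highest on MEF, but iPS-OSH lay well above the other pluripotent arrays. Endoderm markers were highest on iPS-J. All 8 pluripotency markers listed, among them Pou5f1, Sox2 and Nanog, were well above background on the 3 pluripotent arrays. Their summed signal was 629591 on ESC, 416272 on iPS-OSH and 485735 on iPS-J, against 1210 on MEF. Of the 8, 1 was at least 2-fold higher on ESC than on both iPS arrays. It was Zfp42, higher by 4.83 than on iPS-OSH and by 4.28 than on iPS-J, on the log2 scale used below. The 7 fibroblast markers summed to 56094 on ESC, 450145 on iPS-OSH and 66220 on iPS-J, against 1572190 on MEF. The 8 markers of primitive and visceral endoderm summed to 7137 on ESC, 4208 on iPS-OSH, 75309 on iPS-J and 2839 on MEF. The part of these other cell types in the results below was not tested, and in RNA of a whole culture a change in the share of cells and a change in RNA per cell cannot be told apart.

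The 9 genes belong to unrelated families and most are known from differentiated organs, not from pluripotent cells. Lgals6 encodes galectin-6, a lectin of the gut that binds beta-galactosides and is a close copy of galectin-4, and it is known as a gene that some laboratory mouse strains carry and others lack. Ppp1r14d encodes an inhibitor of protein phosphatase 1. Slc27a2 encodes a fatty acid transporter that also activates very long chain fatty acids, best known from liver and kidney. Capn3 encodes the calcium-dependent protease of skeletal muscle, and Myom2 encodes the M-protein that ties thick filaments together at the centre of the sarcomere. Gc encodes the vitamin D binding protein that the liver secretes into plasma. Kif5b encodes the widely expressed heavy chain of the motor protein kinesin-1. Reg2 encodes a secreted lectin-like protein of the pancreas, and Cst13 encodes a member of the cystatins, a family of cysteine protease inhibitors.

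On these arrays a gene is seen only through the short stretch that its probe binds, so the probes on which the values turn are shown first. The Lgals6 probe and one of the 3 Lgals4 probes were given overlapping positions in the mm9 assembly, on chromosome 7, with 39 bases of shared coordinates. Over those 39 bases, 33 were identical and 6 differed. Both 60-base probes are given 5′ to 3′, with capitals at the bases that differ from the other probe.
Lgals6 probe (chr7:29626576-29626635): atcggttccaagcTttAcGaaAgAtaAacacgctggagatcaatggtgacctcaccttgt
Lgals4 probe (chr7:29626555-29626614): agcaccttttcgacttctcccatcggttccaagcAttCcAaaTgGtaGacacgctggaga
Since the copies are this alike, how far either probe also captures the other transcript was not tested. The array design thus places the Lgals6 probe inside Lgals4, and whether Lgals6 has a position of its own was not tested.

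Gc and Capn3 were the members with more than 1 probe, and the probes of each gene gave different pictures. The first 30 bases of each are shown so that the regions behind the values can be told apart.
Gc probe 1 (chr5:89864029-89864558): tgtttcagcactcagagtcccctgctgaag
Gc probe 2 (chr5:89846592-89846651): gccttccaagaagatcaccaagataattcc
Capn3 probe 1 (chr2:120289737-120289796): ttcggccatcattagccgcaattttccgat
Capn3 probe 2 (chr2:120330438-120330497): ttctgaaactgtctacttagcttgtactgg
Ppp1r14d probe (chr2:119043859-119043918): gtcagctgtagttttgtctaatgcttttcc
The Ppp1r14d probe is shown because its gene stood farthest from the iPS arrays among the members. None of the 11 member probes shared a run of 18 bases with another probe on the array. Positions are those of the array design in mm9, and exon or UTR status is not given because an mm9 annotation was not used here.

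Signals are the scanner software's processed intensities, and differences are log2 values after each array was scaled to its 75th percentile, with ESC minus the other array. Probes printed 10 times on each array gave a spot SD of 0.17 for ESC minus iPS-OSH, 0.18 for ESC minus iPS-J and 0.20 for ESC minus MEF, which covers the printing of spots and not the variation between cultures. The software's own error for a member spot well above background was 10% to 20.7% of its signal. A difference of at least 2-fold is called higher or lower. By that size, 5 members were higher on ESC than on both iPS arrays and 4 were lower, as their choice fixed. Over all 29413 genes compared, 18.2% were higher on ESC than on both, 2.15% were lower and 20.4% were one or the other. Counts and shares of all genes, here and throughout, include intergenic regions and transcripts known only by the array design's name. The median of all genes was 0.33 for ESC minus iPS-OSH and 0.20 for ESC minus iPS-J, so part of the excess of higher genes moves with the scaling. The share of such genes that were higher was 89.5% here, 60.2% after quantile normalisation and 71% after scaling on the spike-in probes.

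**Figure D1:**
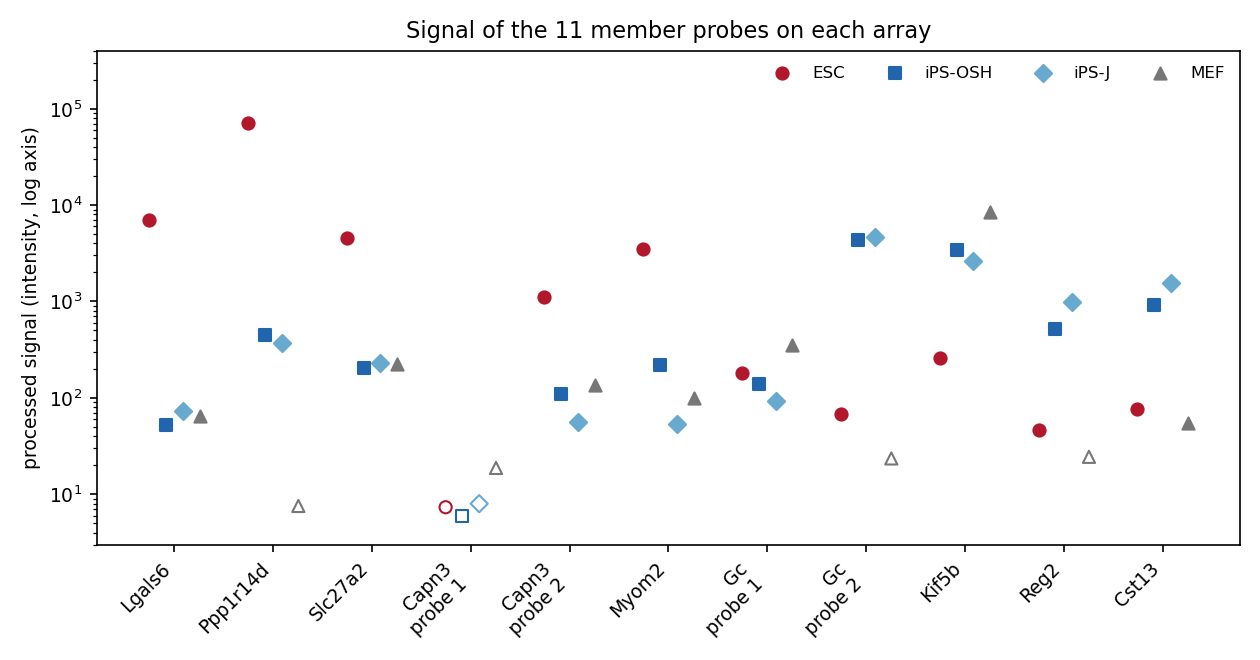
Processed signal (intensity, log axis) of the 11 member probes on the ESC, iPS-OSH, iPS-J and MEF arrays, 1 point per array and no error bars because there was 1 array per group; open symbols were not well above background. ESC lies above the other 3 arrays for Lgals6, Ppp1r14d, Slc27a2, Capn3 probe 2 and Myom2, and below both iPS arrays for Gc probe 2, Kif5b, Reg2 and Cst13.

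Lgals6, the galectin-6 gene, had a signal of 7077 on ESC, against 52.7 on iPS-OSH, 72.3 on iPS-J and 64.1 on MEF. ESC alone was bright, and the other 3 arrays lay within 2-fold of one another. The difference was 7.33 against iPS-OSH and 6.54 against iPS-J, a 161-fold and a 92.9-fold excess, and 7.22 against MEF. Its near copy Lgals4, galectin-4, an epithelial lectin of the gut, is not a member. The array design starts its 3 probes within 85 bases of the position it gives the Lgals6 probe, and all of them were higher on ESC as well. The probe that overlaps the Lgals6 probe had 5176 on ESC, against 336 on iPS-OSH, 570 on iPS-J and 427 on MEF, a difference of 4.20 and 3.11 against the iPS arrays. The probe that starts 82 bases after the Lgals6 probe had 11324 on ESC, against 275, 517 and 140 on iPS-OSH, iPS-J and MEF, a difference of 5.62 and 4.38 against the iPS arrays. The third, 85 bases after it, gave 5.35 and 4.14. The Lgals4 differences were thus smaller than those of Lgals6 on all 3 probes. Among the 9 other galectins listed, Lgals4 was the only one apart from both iPS arrays. Lgals1, an abundant galectin of mesenchymal cells, had 31971 on ESC, against 207057 on iPS-OSH, 50067 on iPS-J and 491027 on MEF. Lgals3, a galectin of macrophages and epithelia, had 7693 on ESC, against 16493, 7248 and 43881 on iPS-OSH, iPS-J and MEF, and the galectin-related gene Lgalsl had 3584, against 2927, 3318 and 13924. These 3 were the galectins after Lgals6 and Lgals4 that the naming rule took by their ESC signal, and none was 2-fold higher or lower on ESC than on both iPS arrays. Of the 5 intestinal markers compared, Lgals4 itself was higher on ESC and Krt20 lower, where 18.2% of all genes were higher and 2.15% lower. Under another scaling or background correction Krt20 went to -0.978 against iPS-J, under 2-fold. The part of these markers in the Lgals6 values was not tested.

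Ppp1r14d, the phosphatase inhibitor gene, had a signal of 70753 on ESC, against 449 on iPS-OSH and 374 on iPS-J, and was not well above background on MEF, where it read 7.5. The iPS arrays were alike and intermediate, and MEF was at the floor. The difference was 7.56 against iPS-OSH and 7.49 against iPS-J. Against MEF, ESC was at least 2810-fold higher, with MEF taken at that array's lowest signal that passed the background test, and both iPS arrays were also above MEF, by at least 14.9-fold for iPS-OSH and 15.6-fold for iPS-J. The other genes of its own family were bright on all arrays and moved little: Ppp1r14b had 34114 on ESC, against 58139 on iPS-OSH, 37583 on iPS-J and 95992 on MEF. Ppp1r14a differed by -0.01 and -0.36 from iPS-OSH and iPS-J, and Ppp1r2, another phosphatase 1 inhibitor, by 0.59 and 0.24. Of the 6 related inhibitor genes, 1 was higher on ESC than on both iPS arrays: Ppp1r1b, the dopamine-regulated inhibitor known as DARPP-32, with 514 on ESC, against 180, 240 and 55.8 on iPS-OSH, iPS-J and MEF.

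Slc27a2, the fatty acid transporter gene, at chr2:126413890-126413949, had a signal of 4591 on ESC, against 203 on iPS-OSH, 230 on iPS-J and 225 on MEF. ESC alone was high, and the other 3 arrays differed from one another by at most 1.46-fold. The difference was 4.76 against iPS-OSH, 4.24 against iPS-J and 4.79 against MEF. Of the 9 other genes of fatty acid uptake and activation compared, 1 was higher: Acsl6, an acyl-CoA synthetase, had 642 on ESC, against 173 on iPS-OSH, 210 on iPS-J and 111 on MEF. Acsl1, the best known acyl-CoA synthetase, differed by 2.05 from iPS-OSH and by 0.89 from iPS-J. Acsl4, which favours arachidonic acid, differed by -0.34 from each, and Acsl3 by 0.96 and -0.26. None of the other transporter genes of the family that could be compared was apart from both iPS arrays.

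Capn3, the muscle calpain gene, was seen by 1 of its 2 probes. Probe 2 had a signal of 1122 on ESC, against 111 on iPS-OSH, 56.7 on iPS-J and 135 on MEF, and differed by 3.60, 4.23 and 3.48 from them. ESC was the only high array. Probe 1, which lies 40.7 kb away and was designed on another transcript record of the gene, read 7.3 on ESC, 6.0 on iPS-OSH, 8.0 on iPS-J and 18.7 on MEF. It was not well above background on any array, so it neither repeats nor contradicts the difference of probe 2, and the excess on ESC rests on 1 probe. Of the 12 other calpain and calpastatin genes compared, Capn8, a calpain of the stomach, was higher on ESC and Capn2 was lower. Capn8 had 78.0 on ESC and was not well above background on iPS-OSH or iPS-J, an excess of at least 1.65 and 1.08 on the log2 scale. Capn2, the catalytic subunit of the widely expressed m-calpain, had 4791 on ESC, against 46398 on iPS-OSH, 15097 on iPS-J and 157174 on MEF. Its small subunit gene Capns1 differed by -0.77 and -1.02 from iPS-OSH and iPS-J, Capn10 by -0.68 and -0.56, and Capn5 by 0.93 and -0.02.

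Myom2, the sarcomere M-band gene, at chr8:15133322-15133381, had a signal of 3493 on ESC, against 220 on iPS-OSH, 53.6 on iPS-J and 100 on MEF. ESC was again the only high array, but here the iPS lines differed from each other, with a difference of -1.70 for iPS-J minus iPS-OSH. The difference was 4.25 against iPS-OSH, 5.95 against iPS-J and 5.56 against MEF. Of the 9 other sarcomere genes, 2 were higher and 1 lower on ESC, where 18.2% of all genes were higher and 2.15% lower. Myom3, another M-band protein gene, had 525 on ESC, against 81.7, 120 and 84.5 on iPS-OSH, iPS-J and MEF, and Actn2, the muscle alpha-actinin gene, had 309, against 129, 86.3 and 39.9. Ttn, which encodes titin, had 123 on ESC, against 544 on iPS-OSH and 245 on iPS-J. Actn3, a further alpha-actinin of fast muscle, differed by 0.63 and 0.40, Obsl1 by -0.36 and -1.02, and Tcap, the titin cap gene, by 0.41 and 0.46. Of the 7 skeletal muscle markers listed, Myod1, Myog and Myh3 were higher on ESC than on both iPS arrays and Acta1 was lower. The shares of all genes were again 18.2% and 2.15%. Under another scaling or background correction Myod1 fell to 0.96 and Myog to 0.99 against iPS-OSH, under 2-fold. Myf5 was not well above background on any array. The summed signal of the 7 markers was 5720 on ESC, 3849 on iPS-OSH, 2099 on iPS-J and 27107 on MEF. Its part in the Myom2 and Capn3 values was not tested.

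**Figure D2:**
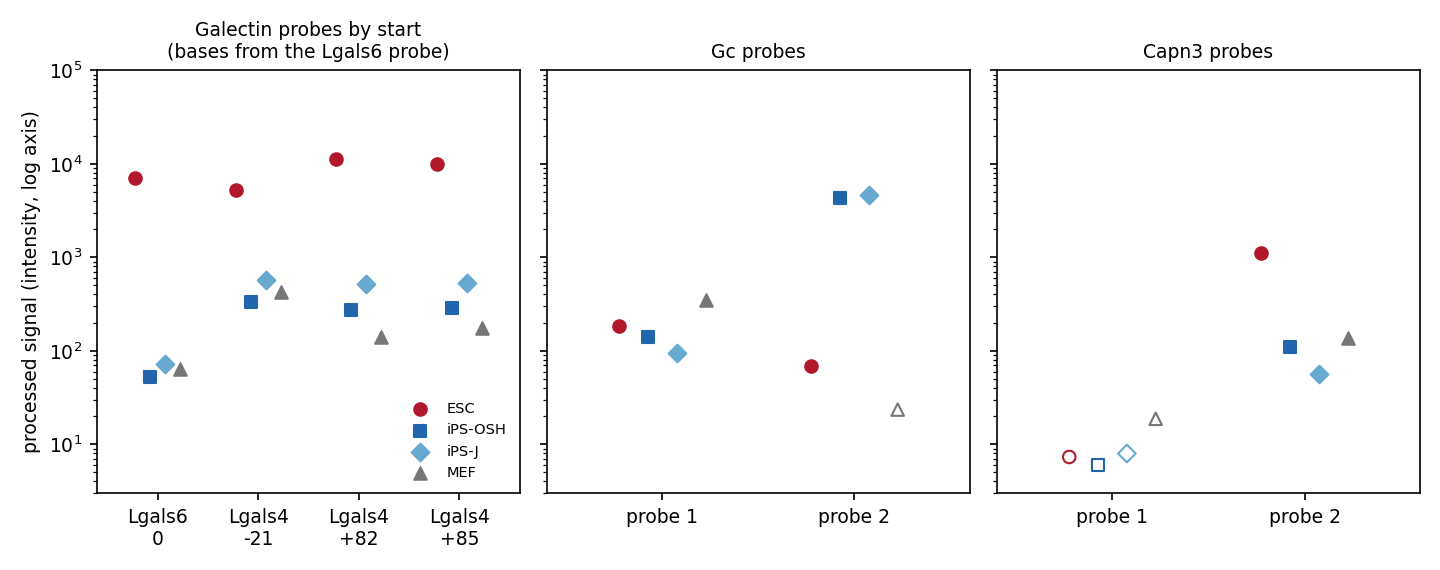
Processed signal (intensity, log axis) on the 4 arrays for the Lgals6 probe and the 3 Lgals4 probes, placed by the distance of their start from the Lgals6 probe in bases (left), for the 2 Gc probes (middle) and for the 2 Capn3 probes (right); open symbols were not well above background. ESC is highest on all 4 galectin probes, while iPS-OSH and iPS-J are high on Gc probe 2 only and ESC is high on Capn3 probe 2 only.

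Gc, the vitamin D binding protein gene, stood at the other end. Probe 2 had a signal of 68.0 on ESC, against 4349 on iPS-OSH and 4615 on iPS-J, and read 23.5 on MEF, where it was not well above background. Both iPS arrays were high, and ESC and MEF were low. The difference was -5.74 against iPS-OSH and -6.16 against iPS-J, which makes ESC 53.5-fold and 71.5-fold lower, and ESC lay at least 2.70-fold above MEF. The iPS signals lay at least 144-fold and 193-fold above MEF. That comparison does not use the ESC array, but it shares the iPS signals by which Gc was chosen. Probe 1 of the same gene, 17.4 kb away, had 183 on ESC, against 140 on iPS-OSH, 93.7 on iPS-J and 352 on MEF. It was well above background on all 4 arrays, yet its differences from the iPS arrays, 0.64 and 0.89, were under 2-fold and of the opposite sign. Under other scalings and background correction they ranged from 0.01 to 0.82 against iPS-OSH and from 0.18 to 1.09 against iPS-J, so the opposite sign was near 0 with quantile normalisation. The Gc value therefore held for 1 of 2 probes, and which of them follows the transcript was not tested. The related genes gave little to set beside it: Alb was not well above background on any array, Afp was so on MEF alone, with 60.9, and Afm differed by -0.72 and -1.14. Hepatocyte markers summed to 2748 on ESC, 1145 on iPS-OSH, 3383 on iPS-J and 794 on MEF. Of the 5 compared, Serpina1a and Apob were higher on ESC than on both iPS arrays, opposite to Gc probe 2, and none was lower. Over all genes 18.2% were higher and 2.15% lower. Under another scaling or background correction Apob fell to 0.48 and 0.39, under 2-fold. The part of these markers in the Gc values was not tested. Gc probe 2 differed by 0.42 between the iPS arrays.

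Kif5b, the kinesin-1 heavy chain gene, was the only lower member that was also lower than MEF. Its 1 probe, at chr18:6202515-6202574, had a signal of 257 on ESC, against 3416 on iPS-OSH, 2599 on iPS-J and 8406 on MEF. All 3 C57BL/6 arrays were high and ESC alone was low. The difference was -3.47 against iPS-OSH, -3.41 against iPS-J and -4.60 against MEF, an 11.1-fold, 10.6-fold and 24.2-fold lower signal. Within 2 kb of this probe, a window chosen after its values were seen, the array carries 15 probes for named intergenic regions. Of these, 8 were designed to the reverse strand, as their names give it, and lay 844 to 1557 bases away, and all 8 were well above background on every array. Their 6 bright members, with signals over 1000 on all arrays, ranged from 1358 to 12400 on ESC, 1766 to 14616 on iPS-OSH, 1322 to 11683 on iPS-J and 2946 to 24572 on MEF. For these 6, ESC minus iPS-OSH lay between -0.32 and 0.18 and ESC minus iPS-J between -0.43 and 0.23, and ESC minus MEF between -0.70 and -0.30. Of the forward-strand probes, 4 were well above background on every array. None of these 4 and the 8 reverse-strand probes was 2-fold lower on ESC than on both iPS arrays. The other 2 reverse-strand probes were dimmer, and ESC was lower there by smaller amounts than at Kif5b, with -1.26 and -0.95 at one and -1.14 and -0.60 at the other. Whether any of these probes bind the same transcript as the Kif5b probe was not tested. None of the 8 other kinesin-1 genes was apart from both iPS arrays. The light chain gene Klc4 had 5962 on ESC, against 5984 on iPS-OSH, 6461 on iPS-J and 5334 on MEF. Klc2 differed by 0.44 and -0.23 and Klc3 by 0.82 and -0.09 from iPS-OSH and iPS-J.

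**Figure D3:**
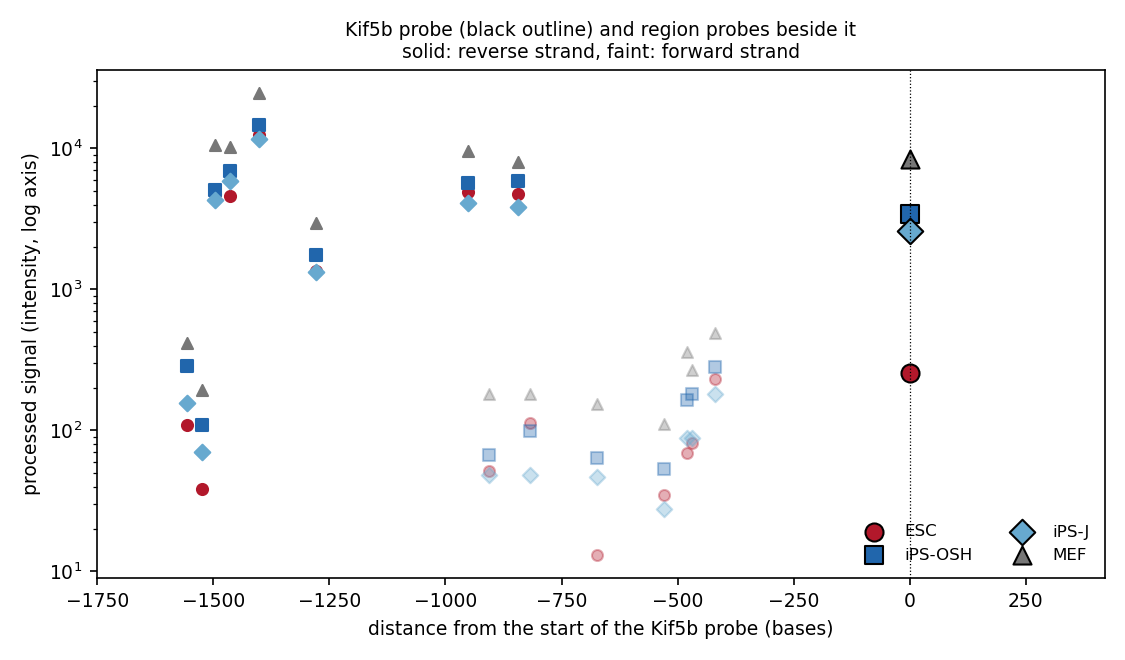
Processed signal (intensity, log axis) on the ESC, iPS-OSH, iPS-J and MEF arrays for the Kif5b probe (outlined in black, at 0) and for the 15 region probes within 2 kb, by distance from the start of the Kif5b probe in bases; solid symbols are probes named for the reverse strand and faint ones for the forward strand. At the Kif5b probe ESC (257) lies far below the other 3 arrays, while at the 6 bright reverse-strand probes it lies close to the iPS values.

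Reg2, the pancreatic lectin-like gene, at chr6:78357959-78358018, had a signal of 45.9 on ESC, against 517 on iPS-OSH and 994 on iPS-J, and read 24.4 on MEF, where it was not well above background. Cst13, the cystatin gene, at chr2:148656061-148656120, had 77.3 on ESC, against 918 on iPS-OSH, 1567 on iPS-J and 54.7 on MEF. In both genes the iPS arrays were high, iPS-J the higher of them, and ESC and MEF were low. Reg2 differed by -3.24 from iPS-OSH and -4.51 from iPS-J, and Cst13 by -3.31 and -4.42. Against MEF, the ESC signal of Reg2 was at least 1.82-fold higher, which is a lower bound, and that of Cst13 was higher by 0.93, which is under 2-fold. The iPS signals of Cst13 lay above MEF by 4.24 for iPS-OSH and 5.35 for iPS-J, and those of Reg2 by at least 4.10 and 5.38.

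The other Reg lectin genes were mostly below background. Of 6 on the array besides Reg2, 1 could be compared: Reg3d, 32.1 kb from Reg2, had 470 on ESC, against 238 on iPS-OSH, 212 on iPS-J and 331 on MEF, which is higher on ESC and opposite to Reg2. Among the 8 other cystatin genes compared, Cst10 and Cst11 were higher on ESC and Cst9 was lower. Cst9, whose probe lies 8.3 kb from that of Cst13, read 30.5 on ESC and 14.4 on MEF, not well above background on either, against 332 on iPS-OSH and 409 on iPS-J. As bounds, ESC minus iPS-OSH was -2.98 or lower and ESC minus iPS-J -3.61 or lower. Cst3, the abundant cystatin C gene, had 15710 on ESC, against 37301 on iPS-OSH and 39341 on iPS-J, a difference of -0.99 and -1.40. Cstb differed by 0.13 and -0.12, and Cst6 by -0.59 and 0.72. The 6 acinar cell markers of the pancreas summed to 2845 on ESC, 1199 on iPS-OSH, 2125 on iPS-J and 985 on MEF. Of these, Ptf1a, Pnlip and Ctrb1 were higher on ESC than on both iPS arrays, opposite to Reg2, and none was lower. Over all genes 18.2% were higher and 2.15% lower. Under another scaling or background correction Ptf1a fell to 0.38 against iPS-J and Ctrb1 to 0.978 against iPS-OSH, both under 2-fold. The part of these markers in the Reg2 values was not tested.

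**Figure D4:**
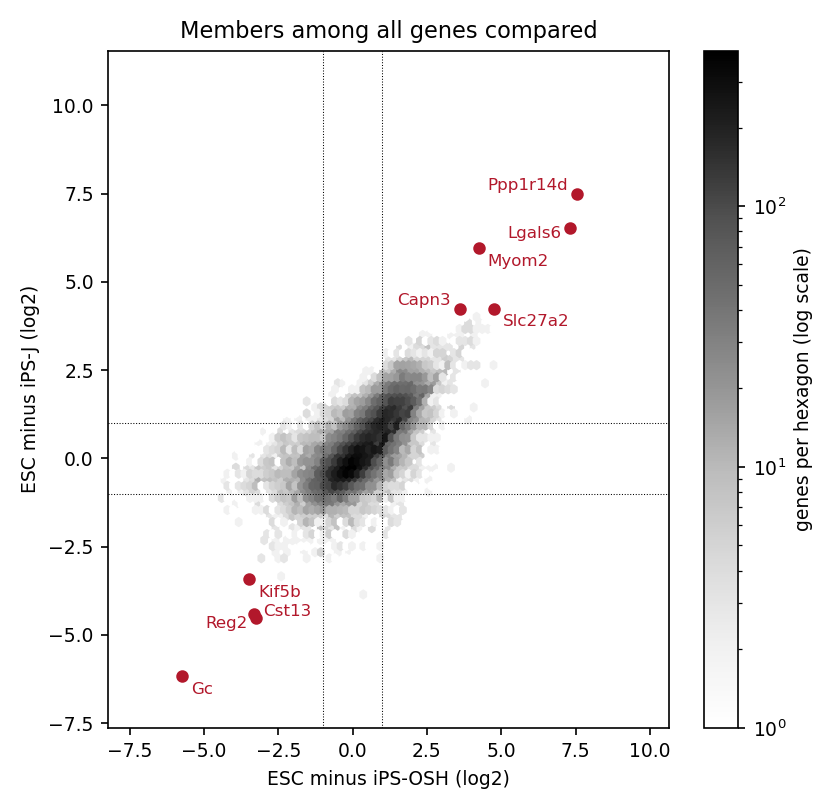
ESC minus iPS-OSH (log2, horizontal) against ESC minus iPS-J (log2, vertical) for the 29413 genes compared, as hexagons shaded by the number of genes on a log scale, with the 9 members in red at their brightest probe; dotted lines mark 2-fold, and both axes use the same ESC array. The members lie at the far ends, from Gc at -5.74 and -6.16 to Ppp1r14d at 7.56 and 7.49, as their choice fixed.

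Ordered by the smaller of the differences from the iPS arrays, Ppp1r14d was number 2 of all genes among those higher on ESC and Lgals6 was number 4, with Myom2 at 19, Slc27a2 at 21 and Capn3 at 56. Among the lower genes Gc was number 2, Kif5b number 5, Cst13 number 6 and Reg2 number 8. The choice thus left out genes with larger differences than some members, among them Tcstv3 at rank 9 (5.63), Stra8, a gene of meiotic entry, at rank 13 (4.55) and Kcnb2 at rank 15 (at least 4.42, since it was not well above background on iPS-J). Among the lower genes just around the members, Bmper ranked number 4 (-3.44), Apoc2 11 (-3.04) and Plaur 12 (-3.03). Stra8 is also 1 of 7 male germ cell markers listed, which summed to 15341 on ESC, 3762 on iPS-OSH, 4473 on iPS-J and 1827 on MEF. Of the 7, 4 were higher on ESC than on both iPS arrays and 0 lower, against 18.2% and 2.15% of all genes. Under another scaling or background correction 1 of the 4, Acrv1, fell to 0.669 against iPS-J.

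MEF was the array the choice did not use, although ESC minus MEF shares the ESC array with the comparisons that it did use. All 5 higher members were also at least 2-fold higher on ESC than on MEF. Over all genes 22.1% were higher than MEF, and of the genes higher than both iPS arrays 42.7% were. Of the 4 lower members, 1 was also lower than MEF, against 16.5% of all genes and 65.5% of the genes lower than both iPS arrays. The 42.7% and 65.5% cover every gene past 2-fold, so they are not a like comparison for members chosen at larger sizes. The smaller of a member's differences from the iPS arrays was 3.60 or more for the higher members and -3.24 or lower for the lower ones. The remaining 3, Gc, Reg2 and Cst13, were low on MEF as on ESC and high on the iPS arrays alone, with Gc at least 2.70-fold higher on ESC than on MEF. The 9 members were thus grouped by their brightest probes. Lgals6, Slc27a2, Capn3 and Myom2 had an ESC-high pattern, with Ppp1r14d differing in that MEF was lower still. Kif5b had an ESC-low pattern, and Gc, Reg2 and Cst13 an iPS-high pattern. For Gc the pattern held at probe 2 and not at probe 1, and for Capn3 it rests on probe 2. For Kif5b it rests on 1 probe, and the bright region probes beside that probe did not show it. Between the iPS arrays, 6 members differed by less than 2-fold, as did 85% of all genes, and Myom2, Reg2 and Cst13 did not.

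For each member the genes with the most alike profile over the 4 arrays were found by the Euclidean distance between centred log2 signals, which is a description over 4 points. The nearest to Lgals6 was Tcstv3, at a distance of 0.88, with 4488 on ESC, against 35.2 on iPS-OSH, 86.2 on iPS-J and no signal well above background on MEF, and the next was the member Slc27a2 at 2.12. Nearest to Ppp1r14d was Stra8, at 2.45, with 9387 on ESC, against 358 and 380 on iPS-OSH and iPS-J, followed by Usp17le-ps at 3.0. Slc27a2 lay nearest to Luzp4 (0.41) and Kcnb2 (0.43), Capn3 to Defb25 (0.46) and Chrm3 (0.53), and Myom2 to Slc23a4 (0.71) and Usp17lb (1.39). Reg2 and Cst13 were nearest to each other, at 0.13, and Cst9 was next for both, at 0.93 for Reg2 and 0.92 for Cst13. Gc lay nearest to Cst13 (2.41) and Reg2 (2.47). The ESC and iPS values by which the members were chosen enter these distances, and the MEF signals of Gc and Reg2 were not well above background. Kif5b lay nearest to Serpina3f (0.47) and to Plaur (0.62), the urokinase receptor gene, which had 1140 on ESC, against 11308, 8814 and 20265 on iPS-OSH, iPS-J and MEF.

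The members were not a block of the genome, but 4 of 9, Ppp1r14d, Capn3, Slc27a2 and Cst13, lay on chromosome 2, which holds 7.58% of the genes compared. Ppp1r14d and Capn3 lay 1.29 Mb apart, Capn3 and Slc27a2 6.08 Mb, and Slc27a2 and Cst13 22.24 Mb. Between Ppp1r14d and Slc27a2, 118 genes were compared, of which 14.4% were higher and 1.69% lower on ESC than on both iPS arrays, close to the 17.6% and 2.24% of chromosome 2 as a whole. Within 500 kb of all members, 177 other genes or named regions were compared, and 14.7% were higher and 1.69% lower, against 18.2% and 2.15% of all genes. The genes around the members as a set were therefore near the background share.

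Some single neighbours moved. Lgals4 has been described with Lgals6, whose window is set by the design position inside Lgals4. In that window Catsperg1, a gene of the sperm calcium channel, was higher on ESC (1.91 and 1.82). There Spred3, a Ras pathway inhibitor gene, was lower (-1.76 and -1.67), as was 2200002D01Rik (-1.75 and -2.31). The gene Kbtbd11, 100.1 kb from Myom2, had 2494 on ESC, against 160 on iPS-OSH, 456 on iPS-J and 641 on MEF at its brightest probe. Its other probes gave 0.48 and 0.90, and 0.81 and -1.87, so the excess was seen at 1 of 3 probes. Near Capn3 the phospholipase genes Pla2g4d (1.82 and 1.73) and Pla2g4f (at least 1.96 and 1.39) and Stard9 (1.57 and 1.36) were higher on ESC. Ap4e1, 456.6 kb from Slc27a2, differed by 1.69 and at least 2.63, Npffr2, 165.2 kb from Gc, by at least 1.90 and 1.14, and Sstr4, 434.2 kb from Cst13, by 1.58 and 1.60. Apart from Reg3d, Cst9 and Cst11, described above, the rest that met the size were transcripts or regions without a common symbol, and no gene with one did so within 500 kb of Ppp1r14d or Kif5b. Cst9 was the only gene within 500 kb of a lower member that was also lower. All others that met the size near Gc, Kif5b, Reg2 and Cst13 were higher on ESC. Under another scaling or background correction some of the named neighbours fell under 2-fold. Pla2g4f fell to 0.43 against iPS-J, and against iPS-OSH and iPS-J Npffr2 fell to 0.99 and 0.23. Reg3d fell to 0.795 and 0.621 and Cst11 to 0.785 and 0.606, while the other named neighbours stayed past 2-fold.

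**Figure D5:**
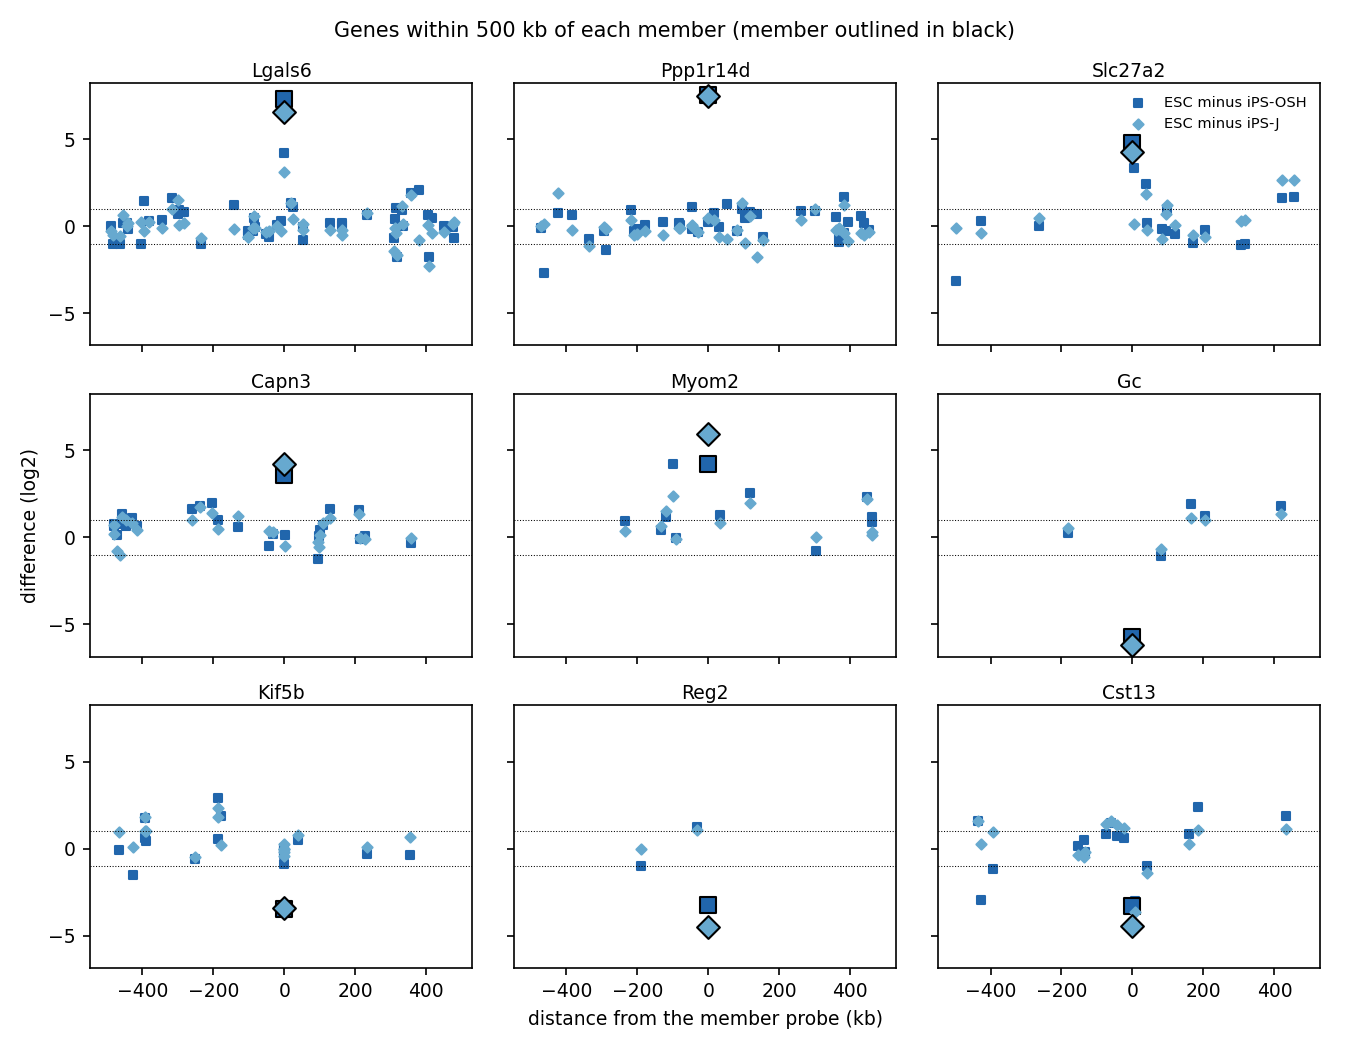
ESC minus iPS-OSH (squares) and ESC minus iPS-J (diamonds), in log2, for the genes and named regions within 500 kb of each member, by distance from the member's probe in kb; the member itself is outlined in black at 0, and dotted lines mark 2-fold. Of the 177 neighbours, 14.7% were higher and 1.69% lower than on both iPS arrays.

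Over the 9 families together, 63 genes related to the members were compared. Of the 63, 9 (14.3%) were higher and 3 (4.76%) lower on ESC than on both iPS arrays, against 18.2% and 2.15% of all genes. Besides Reg3d and Cst11, some of the 12 fell under 2-fold under another scaling or background correction. They were Ppp1r1b (0.62), Capn8 (0.12), Cst10 (0.85) and Ttn (-0.76) against iPS-J and Actn2 (0.935) against iPS-OSH. A list of 12 genes, drawn from general knowledge as varying between 129 and C57BL/6 mice, was set beside the related genes. Whether they vary in the RNA that these probes bind was not tested. Of these 12, 1 was higher on ESC than on both iPS arrays and none was lower, against 18.2% and 2.15% of all genes. It was Slamf6, a receptor gene of lymphocytes. Slamf6 had 370 on ESC, against 199 on iPS-OSH, 101 on iPS-J and 255 on MEF, a difference of 1.15 and 1.80. The other 11 were not apart from both iPS arrays, and the brightest of them on ESC, Erdr1, Pttg1 and Nnt, differed by 0.00 and -0.93, by 0.97 and 0.27, and by 0.70 and 0.38 from iPS-OSH and iPS-J.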

How the data were processed

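Each of 4 groups held 1 array, and groups were taken from the labels. The authors' scanner files give an intensity for each of 62976 spots per array. Per the file headers, Feature Extraction 10.5.1.1 had subtracted the background and had not scaled the arrays to one another. The authors' value table holds this intensity too, within 0.497%. Control spots and spots flagged as uneven or outlying (203 to 531 per array) were left out. The log2 signal minus the array's 75th percentile was compared at 2-fold, at the gene's brightest probe, the one with the highest mean over the arrays. Where a probe was well above background on 1 side only, the difference is a bound. Of the member genes, 8 were named by accession in RefSeq and Lgals6 kept the design's name; 24101 probes kept theirs. Named are all members, related or neighbouring genes (500 kb) that met the size, up to 3 more per family by ESC signal, and the 2 genes of most alike profile. Members and lists were chosen with earlier results of these data known. Alternatives were normexp with offset 50 (limma 3.58.1 in R 4.3.3), quantile, spike-in or other percentile scaling, the value table left unscaled, dim-probe filters, the median over probes, 4-fold and 2 Mb. The scripts, in Python 3.11.15 with pandas 2.3.3, were tested on simulated data. The number of arrays limits the precision.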

Additional observations from a re-analysis of the deposited data

How the results depend on the processing

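All 9 members stayed at least 2-fold apart from both iPS arrays in their direction under each alternative run except the median over probes, which compared 8 and kept those 8, since 1 of the 2 Capn3 probes is below background. Of 120 single member values, 82 moved by more than the spot SD and 38 did not, with shifts up to 1.49 (log2); the 108 called ones kept their direction and stayed past 2-fold. The members apart from MEF were 7, and 5 to 9 under the alternatives; the probes of 1 gene, Gc, disagreed in every setting run. The count of all genes apart from both iPS arrays, 5995, was 2994 with normexp, 3516 with quantile normalisation (2116 higher, 1400 lower) and 705 at 4-fold, and with spike-in scaling 3306 were higher and 1348 lower. Of genes near the members, 29 met the size, against 15 with normexp, 17 with probes well above background on all arrays, 5 at 4-fold and 104 in a window of 2 Mb. Of related genes, 12 met it, against 7 with normexp and 3 at 4-fold, and spike-in scaling gave 6 higher and 7 lower. The 1 strain-variable gene became 0 under normexp, quantile and spike-in scaling, the unscaled value table, the median over probes and 4-fold. The causes were not tested, save that a wider window or a stricter size changes the count by its construction. The median of all genes, ESC minus iPS-OSH, was 0.33, and -0.04 with spike-in scaling and 0.51 with the percentile over probes detected on all arrays. No paired analysis was possible because each group held 1 array. Signals near background limit Gc, Reg2 and Ppp1r14d on MEF to bounds. The ESC signals of Reg2, Cst13 and Gc probe 2 were dim as well. So were the iPS signals of Lgals6 and the iPS-J signals of Myom2 and Capn3. With normexp, ESC minus iPS-OSH went from -3.24 to -2.05 for Reg2 and from -3.31 to -2.58 for Cst13. It went from -5.74 to -4.63 for Gc probe 2 and from 7.33 to 6.19 for Lgals6. The ESC minus iPS-J value went from 5.95 to 4.465 for Myom2 and from 4.23 to 3.12 for Capn3.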
